A study of Mus musculus with 18 samples.

Results

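The genes of the mitochondrial ribosomal proteins were followed over 1 day in mouse liver. They were chosen by name alone, as every gene of the deposited table whose symbol starts with Mrpl or Mrps and goes on with a number. The rule found 77 of the 14451 genes in the table, 48 with an Mrpl symbol (proteins named for the large subunit) and 29 with an Mrps symbol (proteins named for the small subunit). The livers came from WT male mice of 8 to 9 weeks, kept in a cycle of 12 h of light and 12 h of darkness, and were taken whole at ZT1, ZT5, ZT9, ZT13, ZT17 and ZT21. ZT, zeitgeber time, is the number of hours since lights on, and the dark phase runs from ZT12 to ZT24. At each of the 6 times 3 livers were sequenced, 18 in all, each from another animal, so the rhythm was read across animals and over a single day. All animals shared genotype, sex and light cycle, and the labels give no strain and no treatment. Of the 5 mice kept per time, the 3 with the best RNA were sequenced.

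Mitochondria carry a small genome of their own and translate its messages, which encode subunits of the respiratory chain, on a ribosome of their own. The RNA of that ribosome is encoded in the mitochondrial genome, whereas all of its proteins are encoded in the nucleus, made in the cytosol and imported. Liver is rich in mitochondria, and its feeding-dependent metabolism follows the daily cycle of activity, with mice feeding mainly in the dark.

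Each value is a normalized value on a linear scale, which amounts to reads of the gene per 1000000 of an adjusted library size. The adjustment differed between livers, so that the values of a liver summed to between 941088 and 1077230. Depth ranged from 10268168 to 23242842 estimated reads per liver, the lowest value of any member in any liver was 6.76, and the fewest reads behind any member's value were 77.5, so no member was near the detection limit. All 6 hepatocyte markers examined were far above the floor of the table in every liver, with a summed value of 72753 to 103626, as liver would have. By the levels of the clock genes Arntl, Per2, Nr1d1 and Dbp, 17 of the 18 livers were nearest to the mean of their own time and ZT5 replicate 3 was nearest to that of ZT9, so counts are also given without it. Fewer cells of a type and less RNA per cell cannot be told apart in whole livers.

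The members are spread over 17 chromosomes, and the DNA just before their start sites is described first. The promoter table of RefSeq, on GRCm38.p6, held 74 start sites for 68 of the 77 members, and each window of 250 bases before and 50 bases after the start was searched on both strands. The core CCGGAAG, bound by ETS factors such as GABP, was present in 33.8% of the member windows, in 16.1% of the windows of all genes tested and in 8.86% of all windows in the table. The core TGCGCA, part of the site of NRF1, was present in 28.4% of member windows, against 12.7% and 7.76%. AAGATGG, the core of the YY1 site, was present in 17.6%, against 6.83% and 6.34%. GABP, NRF1 and YY1 are known as regulators of nuclear genes for mitochondrial proteins.

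The elements through which clock factors act were in shares of the member windows close to those of other genes. The E-box CACGTG, bound by the factors CLOCK and BMAL1, was in 9.46% of the member windows and in 9.60% of those of the genes tested. The element AGGTCA, bound by ROR and REV-ERB receptors, was in 14.9%, against 13.3%, and the D-box TTATGTAA was in none of the 74, against 0.583%. CRE (TGACGTCA) was in 2.70%, against 2.89%. None of the letters of one motif contain those of another, but sites can overlap on the DNA, as the E-box and the AGGTCA element do in Mrpl36. The median GC content was 58.5% in member windows and 60.0% in the windows of all genes tested.

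The last 120 bases before the RefSeq start of 5 members with large amplitudes are given here. These 5 were picked because together they show the cores of all 3 mitochondrial regulators and an E-box. Each stretch runs from 5′ to 3′ on the strand of the gene, with all matches to the 7 motifs in capitals.
Mrpl34, chr8:71464806-71464925, plus strand: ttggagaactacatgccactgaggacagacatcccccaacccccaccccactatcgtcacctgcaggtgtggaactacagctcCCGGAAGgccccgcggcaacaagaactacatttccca
Mrps22, chr9:98601680-98601799, minus strand: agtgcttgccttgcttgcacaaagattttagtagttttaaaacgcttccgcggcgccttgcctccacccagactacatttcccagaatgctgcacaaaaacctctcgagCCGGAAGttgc
Mrpl44, chr1:79775898-79776017, plus strand: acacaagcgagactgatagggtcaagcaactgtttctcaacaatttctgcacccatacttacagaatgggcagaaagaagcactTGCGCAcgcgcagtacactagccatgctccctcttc
Mrps7, chr11:115604020-115604139, plus strand: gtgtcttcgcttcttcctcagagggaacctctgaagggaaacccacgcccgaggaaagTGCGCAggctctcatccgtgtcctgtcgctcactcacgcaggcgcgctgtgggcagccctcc
Mrpl36, chr13:73330889-73331008, plus strand: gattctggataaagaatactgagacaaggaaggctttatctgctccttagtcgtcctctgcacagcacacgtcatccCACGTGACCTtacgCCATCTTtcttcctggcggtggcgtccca
The capitals mark the ETS core in Mrpl34 and Mrps22, the NRF1 core in Mrpl44 and Mrps7, and in Mrpl36 the E-box running into the reverse complement of AGGTCA and, after it, the reverse complement of the YY1 core. A match describes letters in this window and not a bound site. Not all members of large amplitude had a match, and the windows of Mrps2 and Mrps36 held none of the 7 motifs.

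The mitochondrial ribosomal protein genes were lowest in the light phase and highest in the dark phase, by a small amount. Summed over the 77 members, the normalized value was 1838, 1916 and 1989 in the livers of ZT1, 1790, 1774 and 1823 at ZT5 and 1791, 1833 and 1841 at ZT9. It was 2094, 1973 and 2004 at ZT13, 2062, 2146 and 2061 at ZT17 and 2030, 1856 and 1932 at ZT21. Every liver of ZT13 and ZT17 thus lay above every liver of ZT5 and ZT9, while the livers of ZT1 overlapped with those of ZT9, ZT13 and ZT21, and the livers of ZT21 with those of ZT1 and ZT13. The mean was highest at ZT17, 2090 ± 49.0 (SD, n = 3), and lowest at ZT5, 1796 ± 24.6 (SD, n = 3), a ratio of 1.16.

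**Figure D1:**
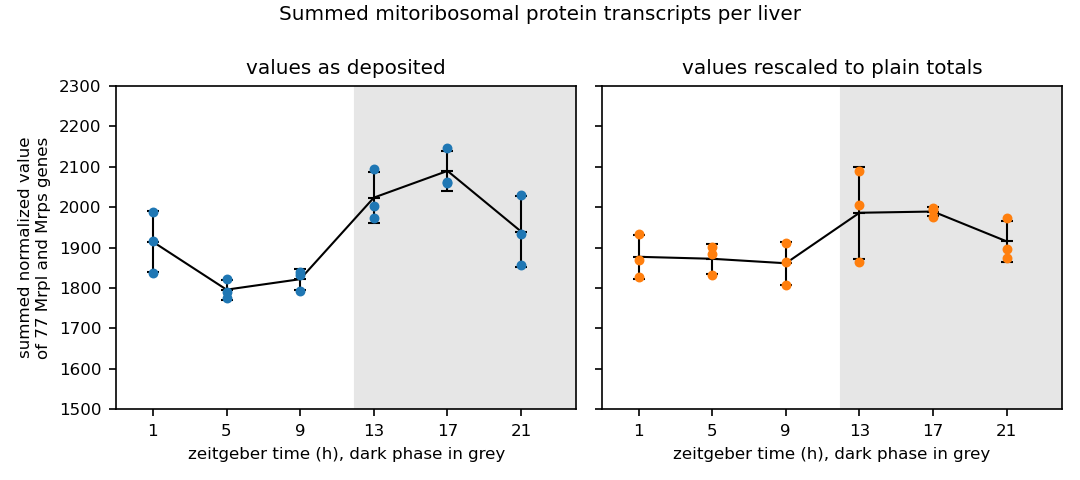
Summed normalized value of the 77 members in each liver (dots) against zeitgeber time, with the mean and SD of the 3 livers of each time (black line and bars) and the dark phase in grey, for the values as deposited (left) and rescaled to plain totals (right). The value axis does not start at 0. On the left all ZT13 and ZT17 livers lie above all ZT5 and ZT9 livers, and on the right this holds for ZT17 only.

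The size of this difference depended on the scaling of the libraries. The deposited values use effective library sizes, which differ from plain totals, and rescaling to plain totals moved the median of all genes by 0.131 on the log2 scale between its lowest time, ZT17, and its highest, ZT5. With plain totals the summed member value was 1989 ± 11.7 (SD, n = 3) at ZT17 and 1861 ± 52.7 (SD, n = 3) at ZT9, a ratio of 1.07. All ZT17 livers, at 1976 or more, then still lay above all ZT5 and ZT9 livers, at 1912 or less, but a liver of ZT13, at 1864, did not. Scaling by the median of ratios, which moved the median gene by 0.0146, gave a ratio of 1.18.

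Many members took part in the pattern with a small share each. The livers with the most and the fewest members above their own mean over all livers were ZT17 replicate 2 and ZT5 replicate 2. They had 66 and 14 of the 77 above it, against 48.4% and 51.3% of all genes tested. ZT21 was the most uneven time, with 59, 25 and 42 of 77 members above their mean in its 3 livers, against 49.9%, 49.6% and 49.9% of all genes. ZT17 was the time of the highest mean for 36 members and ZT13 for 20, whereas ZT5 was the lowest for 29 and ZT9 for 22. For comparison, ZT17 was the highest time for 16.9% of all genes tested and ZT13 for 18.8%, while ZT5 was the lowest for 16.8% and ZT9 for 17.7%. With plain totals 46 members were highest at ZT13 or ZT17, against 56 as deposited, and 31 were lowest at ZT5 or ZT9, against 51. Between the lowest and the highest of the 6 means the ratio ran from 1.06 to 1.72 with a median of 1.23, and it was over 1.5 in 5 members. Over all genes tested the median ratio was 1.48, and it was over 1.5 in 48.2%. Spread between the livers of a time also enters this ratio. The median coefficient of variation between these livers was 0.138 over all genes and 0.082 in members.

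**Figure D2:**
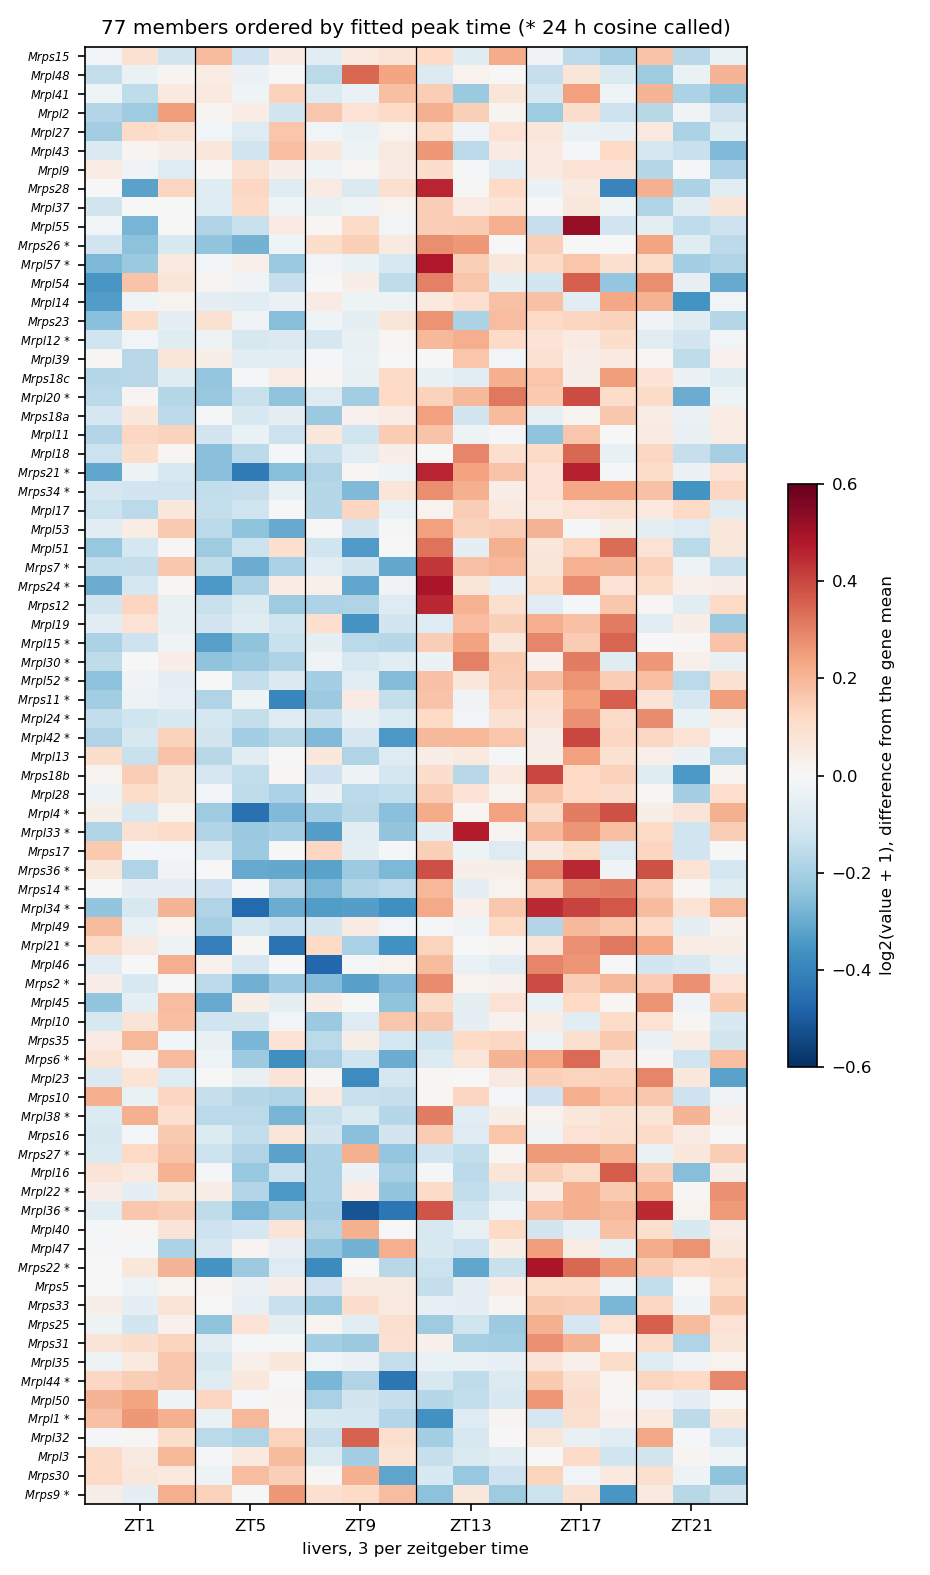
Each row is 1 of the 77 members, ordered by the fitted time of its peak from ZT6 at the top, and each column is 1 of the 18 livers, grouped by zeitgeber time between the black lines. Colour gives log2(value + 1) minus the mean of the gene (red above, blue below), and stars mark the 30 members with a 24 h cosine. Most rows are blue at ZT5 and ZT9 and red at ZT13 or ZT17, and the small group at the bottom peaks around the change from dark to light.

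To find daily rhythms, limma was used to fit a 24 h cosine to log2(value + 1), and a rhythm was called at a Benjamini–Hochberg adjusted P below 0.05 over all 14449 genes with values above the floor. The call was made in 30 of the 77 members (39.0%), against 35.3% of all genes, so the share of called members was near the background. What differed was the time of the peak. Of the 30 called members 28 peaked in the dark phase (93.3%), against 48.4% of all called genes, and genes called with a dark peak made up 17.1% of all genes tested. Between ZT13 and ZT20 alone lay the peaks of 27 members (90.0% of the 30), against 31.2% of all called genes. That window was set with peak times of these data known, so its shares describe the members and test nothing. The peaks in the dark ran from ZT13.9 to ZT21.8, and the median was ZT17.5. Among the 47 members without a call, 36 had their fitted peak in the dark as well (76.6%, against 48.3% of the genes without a call). With plain totals 19 of the 77 members were called, against 5275 of the 14449 genes, so the share of members was then below that of all genes. Of these 19 members, 16 had a dark peak, while 32.1% of all called genes then peaked in the dark. Without ZT5 replicate 3 the call was made in 24 members, all with a dark peak.

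**Figure D3:**
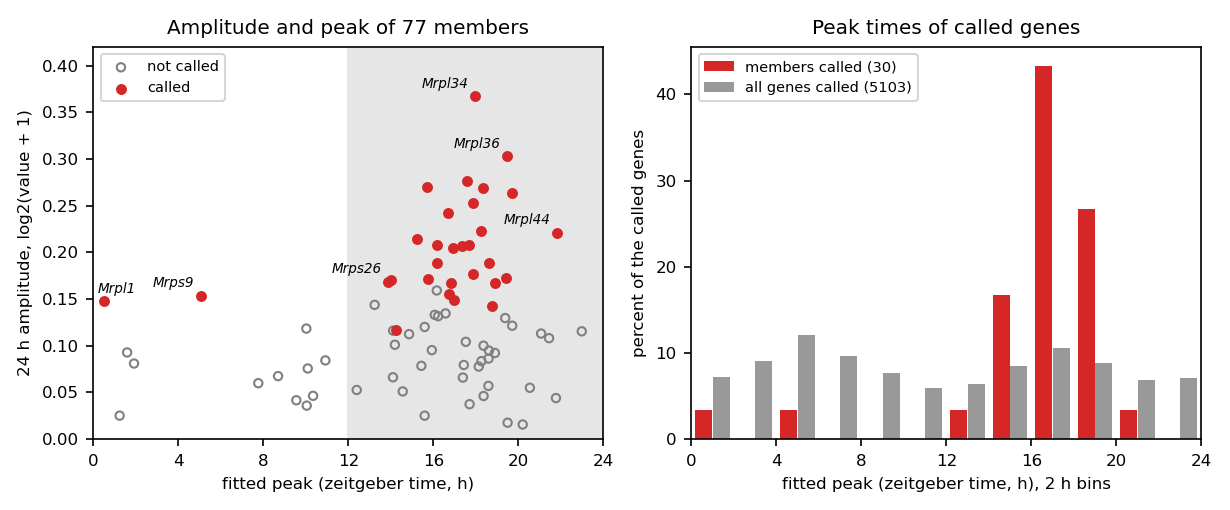
Left, the 24 h amplitude in log2 units against the fitted peak in hours of zeitgeber time for each of the 77 members, with called members in red, members without a call as open circles and the dark phase in grey. Right, the percentage of called members (red) and of all called genes (grey) whose peak falls in each bin of 2 h. The called members gather between ZT14 and ZT20, with 43.3% of them between ZT16 and ZT18, whereas all called genes are spread over the whole day.

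Amplitudes were small. In the called members they ran from 0.12 to 0.37 on the log2 scale, which is a fitted fold from trough to peak of 1.18 to 1.66 with a median of 1.31. The median amplitude was 0.12 over all 77 members and 0.16 over all genes tested, and among called genes it was 0.20 in members and 0.28 overall. All of the 15 called members of largest amplitude described here kept the call under each scaling tried. By the symbols, 17 of the 48 large subunit members and 13 of the 29 small subunit members were called, with dark peaks in 16 and 12. The difference between subunits was not tested. The test for any difference among the 6 times, which assumes no curve, was passed by 15 members (19.5%), against 26.3% of all genes, and 14 of these also had the 24 h call. The exception was Mrpl53, named here after its values were seen, with an adjusted P of 0.0321 for the times and of 0.0645 for the cosine.

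Among the proteins of the large subunit, Mrpl34 (ENSMUSG00000034880, chromosome 8 of GRCm38, 71464959 to 71465747) had the largest amplitude of all members. It encodes a small protein that binds the ribosomal RNA and has a bacterial counterpart, L34. Its normalized value was 19.97, 22.1 and 27.5 at ZT1, 20.8, 16.9 and 19.1 at ZT5, 18.6, 18.7 and 18.1 at ZT9, 27.99, 24.3 and 26.6 at ZT13, 32.7, 31.8 and 31.05 at ZT17 and 27.2, 25.1 and 27.4 at ZT21. The 3 livers of ZT17 were higher than all other livers, and those of ZT5 and ZT9 did not reach any liver of the dark phase. The amplitude was 0.37 ± 0.047 (SE) on the log2 scale, with a peak at ZT17.96 ± 0.48 h (SE) and a limma adjusted P of 5.06e-05.

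Mrpl36 (ENSMUSG00000021607, chromosome 13, 73328513 to 73332178), the homologue of bacterial L36, followed with an amplitude of 0.30 ± 0.056 (SE) and a later peak, at ZT19.5 ± 0.71 h (limma adjusted P = 0.00153). Its value was 16.9, 19.96 and 19.7 at ZT1, 15.8, 14.4 and 15.1 at ZT5, 15.3, 12.1 and 12.9 at ZT9, 23.3, 16.3 and 17.4 at ZT13, 20.2, 20.7 and 20.5 at ZT17 and 24.6, 18.02 and 21.3 at ZT21. The livers of ZT5 and ZT9 were below all others, and 1 liver each of ZT13 and ZT21 stood above the rest. On the other strand Ndufs6, a subunit of respiratory complex I, has its annotated start 29 bases from the annotated start of Mrpl36 at 73328513, and the exons of both share 30 bases. The RefSeq window printed above, which ends at 73331008, lies downstream of that start and is not the region next to Ndufs6. Ndufs6 was also called, with a peak at ZT17.1 and an adjusted P of 0.00164.

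Mrpl4 (ENSMUSG00000003299, chromosome 9, 21002738 to 21008839) encodes a protein whose bacterial counterpart, L4, lines the tunnel through which the new chain leaves. Its value was 23.1, 20.9 and 22.8 at ZT1, 19.3, 16.2 and 18.5 at ZT5, 19.3, 19.9 and 18.7 at ZT9, 26.4, 22.6 and 26.7 at ZT13, 24.4, 28.1 and 29.6 at ZT17 and 23.04, 23.7 and 26.2 at ZT21. All livers of ZT5 and ZT9 were below all others. The amplitude was 0.28 ± 0.042 (SE) and the peak at ZT17.6 (limma adjusted P = 0.000276).

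Mrpl15 (ENSMUSG00000033845, chromosome 1, 4773206 to 4785739) is the counterpart of the bacterial large subunit protein L15. Its value was 42.7, 44.8 and 48.2 at ZT1, 38.8, 41.2 and 44.5 at ZT5, 46.9, 43.5 and 43.2 at ZT9, 54.2, 57.9 and 51.3 at ZT13, 60.1, 54.3 and 62.5 at ZT17 and 48.9, 49.05 and 55.1 at ZT21. Each dark-phase liver was above each light-phase liver. The amplitude was 0.24 ± 0.036 (SE), with a peak at ZT16.7 (limma adjusted P = 0.000232).

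Mrpl44 (ENSMUSG00000026248, chromosome 1, 79776018 to 79781445), a protein with a ribonuclease III-like domain, had the latest dark peak among the called members, at ZT21.8 ± 0.63 h (SE). Its value was 18.4, 18.8 and 18.97 at ZT1, 16.01, 17.6 and 16.9 at ZT5, 13.7, 14.8 and 12.2 at ZT9, 15.7, 15.1 and 15.9 at ZT13, 18.9, 18.04 and 17.00 at ZT17 and 18.5, 18.4 and 20.8 at ZT21. The livers of ZT9 were the lowest, and those of ZT13 the next lowest, below all livers of ZT5. The amplitude was 0.22 ± 0.036 (SE, limma adjusted P = 0.000562).

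The remaining large subunit members among the 15 called members of largest amplitude were Mrpl21, Mrpl20, Mrpl33 and Mrpl42. Their amplitudes ran from 0.21 to 0.22 and their peaks from ZT15.2 in Mrpl20 to ZT18.3 in Mrpl21, with limma adjusted P values from 0.00678 to 0.0172. Mrpl12 (ENSMUSG00000039640) encodes the stalk protein that recruits translation factors, and it had the most normalized reads of all members, with a mean value of 82.7 not corrected for length. Its value was 75.8, 81.5 and 78.3 at ZT1, 80.6, 77.1 and 77.6 at ZT5, 76.8, 79.9 and 83.1 at ZT9, 94.6, 96.1 and 89.3 at ZT13, 87.3, 85.4 and 88.8 at ZT17 and 78.7, 75.99 and 81.6 at ZT21. The livers of ZT13 and ZT17 were all above the rest, but the amplitude was the smallest among the called, 0.12 ± 0.032 (SE, limma adjusted P = 0.0240), and the call was lost without ZT13 replicate 1 or 2 (adjusted P = 0.0521 and 0.0608) and with plain totals (0.0733).

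**Figure D4:**
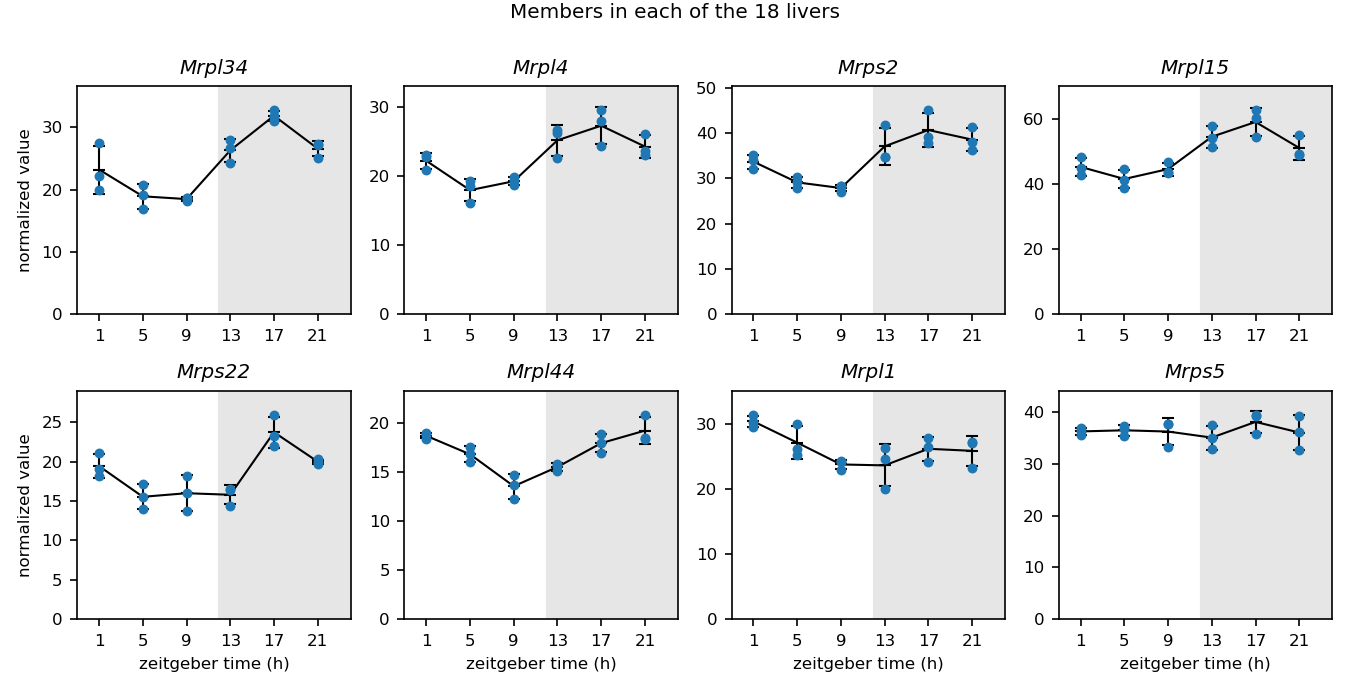
Normalized value of 8 members in each of the 18 livers (dots) against zeitgeber time, with the mean and SD of 3 livers (black line and bars) and the dark phase in grey, each axis starting at 0. In Mrpl34, Mrpl4, Mrps2 and Mrpl15 the means of ZT13, ZT17 and ZT21 are above those of the light phase. Mrps22 rises only at ZT17, Mrpl44 is highest at ZT21, Mrpl1 is highest at ZT1 and Mrps5 is flat.

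Among the proteins of the small subunit, Mrps2 (ENSMUSG00000035772, chromosome 2, 28468066 to 28471178), the counterpart of bacterial S2, had a value of 35.1, 31.97 and 33.98 at ZT1, 30.4, 27.8 and 29.2 at ZT5, 28.3, 26.98 and 28.2 at ZT9, 41.8, 34.7 and 34.7 at ZT13, 44.96, 37.9 and 39.1 at ZT17 and 37.97, 41.4 and 36.2 at ZT21. The livers of ZT5 and ZT9 were below all others. The amplitude was 0.27 ± 0.040 (SE), with a peak at ZT18.4 (limma adjusted P = 0.000215).

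Mrps21 (ENSMUSG00000054312, chromosome 3, 95862634 to 95871519), a short protein with a bacterial counterpart, S21, turned earlier, with a peak at ZT15.7 ± 0.71 h (SE). Its value was 21.1, 25.9 and 24.7 at ZT1, 22.1, 19.6 and 22.04 at ZT5, 23.3, 26.6 and 26.001 at ZT9, 36.7, 31.4 and 29.9 at ZT13, 28.2, 36.8 and 26.3 at ZT17 and 28.6, 25.8 and 28.2 at ZT21. The 3 livers of ZT13 were above all livers of the light phase, whereas of the ZT17 livers 1 was as high as these and 1 was as low as the highest livers of the light phase. The amplitude was 0.27 ± 0.050 (SE, limma adjusted P = 0.00165).

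Mrps22 (ENSMUSG00000032459, chromosome 9, 98588730 to 98601660) is a protein of the mitochondrial small subunit without a bacterial counterpart. Its value was 18.2, 19.1 and 21.1 at ZT1, 13.98, 15.5 and 17.2 at ZT5, 13.7, 18.2 and 16.1 at ZT9, 16.5, 14.4 and 16.5 at ZT13, 25.9, 23.3 and 22.02 at ZT17 and 20.3, 19.8 and 19.98 at ZT21. Here ZT13 was as low as ZT5 and ZT9, and the 3 livers of ZT17 were above all others. The amplitude was 0.26 ± 0.054 (SE), with a peak at ZT19.7 and a limma adjusted P of 0.00381, and the difference among the times had an adjusted P of 0.00365.

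Mrps7 (ENSMUSG00000046756, chromosome 11, 115603925 to 115608036), the counterpart of the bacterial protein S7, which starts the assembly of the head of the small subunit, was highest at ZT13. Its value was 45.1, 45.3 and 56.05 at ZT1, 44.9, 40.6 and 43.6 at ZT5, 47.6, 46.3 and 40.3 at ZT9, 67.4, 56.7 and 57.7 at ZT13, 52.8, 57.9 and 57.9 at ZT17 and 55.2, 49.00 and 45.6 at ZT21. All ZT13 livers were above all light-phase livers, and ZT21 overlapped with the light phase. The amplitude was 0.21 ± 0.050 (SE), with a peak at ZT16.2 (limma adjusted P = 0.0114).

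Mrps36 and Mrps11 were the remaining members with an Mrps symbol among those 15. Their amplitudes were 0.25 ± 0.060 and 0.21 ± 0.046 (SE), with peaks at ZT17.8 and ZT16.9 and limma adjusted P values of 0.00959 and 0.00659. The protein of Mrps36 is now known as a subunit of the 2-oxoglutarate dehydrogenase complex, in spite of its symbol. The gene stays in all counts, by subunit too, since these go by symbol. For Mrps36 the annotation also lists 3 pseudogenes by name, so its reads may be shared with copies. Mrps11 had the fewest normalized reads of the 77, with a mean value of 9.27 not corrected for length. Its start lies 412 bases from that of another member, Mrpl46, on the other strand, with 173 exon bases in common. Mrpl46 was not called (amplitude 0.08, limma adjusted P = 0.472).

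The peaks of 2 called members lay in the light phase, and both are named here after their values were seen. Mrpl1, the protein of the flexible stalk past which spent transfer RNA leaves, had a value of 29.6, 31.4 and 30.3 at ZT1, 25.3, 30.01 and 26.2 at ZT5, 24.3, 24.2 and 22.96 at ZT9, 20.05, 24.6 and 26.3 at ZT13, 24.2, 27.9 and 26.6 at ZT17 and 27.2, 23.2 and 27.3 at ZT21. It was highest at ZT1, where only 1 ZT5 liver reached into the range of the 3 livers, and peaked at ZT0.5 with an amplitude of 0.15 ± 0.045 (SE, limma adjusted P = 0.0422). Mrps9, the counterpart of bacterial S9, peaked at ZT5.1 with an amplitude of 0.15 ± 0.048 (SE) and a limma adjusted P of 0.0497, just inside the threshold, and its highest and lowest times, ZT5 and ZT13, overlapped. Without ZT5 replicate 3 neither was called, and the 24 members called then all peaked in the dark phase.

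The flattest members were Mrps5, Mrpl40 and Mrpl11, with amplitudes of 0.02 ± 0.036, 0.02 ± 0.043 and 0.03 ± 0.047 (SE). Mrps5, the counterpart of a bacterial protein that acts in the accuracy of decoding, had a value of 36.4, 35.6 and 36.9 at ZT1, 36.8, 35.4 and 37.4 at ZT5, 33.2, 37.8 and 37.8 at ZT9, 32.8, 35.01 and 37.5 at ZT13, 39.3, 39.4 and 35.7 at ZT17 and 32.7, 36.2 and 39.3 at ZT21. The livers of all times overlapped. A missed threshold does not show that a gene is constant, and the fold from trough to peak fitted for Mrps5 was 1.02.

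The 3 genes that descend from the bacterial S18 protein were not called. Mrps18a, whose protein sits in the large subunit, had an amplitude of 0.08 ± 0.042 (SE, limma adjusted P = 0.304). Mrps18b and Mrps18c, of the small subunit, had amplitudes of 0.08 ± 0.055 and 0.11 ± 0.041 (SE, limma adjusted P = 0.471 and 0.0972). The fitted peaks of all 3 lay in the dark, between ZT14.9 and ZT17.4. Mrps18b was highest in the 3 livers of ZT17, with 42.05, 34.5 and 34.9, where 1 liver of ZT1 reached 35.1.

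Levels between members were compared as mean value per kb of transcript. Mrps21 had the highest, 66.3 per kb, followed by Mrpl12 with 62.8 and Mrpl20 with 53.8. The lowest were Mrpl19, Mrps25 and Mrps26, with 2.56, 3.02 and 3.18 per kb. This rank rests on their long annotated transcripts, of 5000, 6073 and 4278 bases. Not corrected for length, their mean values were 12.8, 18.3 and 13.6, above the 9.27 of Mrps11. Mrps26 was called (amplitude 0.17 ± 0.046, limma adjusted P = 0.0239), a call that was lost without ZT1 replicate 2 or without ZT13 replicate 1 or 2. Mrps25 and Mrpl19 were not called, and they share 4590 exon bases with Nr2c2 and 1962 with Gcfc2 on the other strand, where the sources used here do not say whether strand was used in counting.

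The algorithms of the study called fewer members than the cosine. CircaN, which fits 7 curve shapes and asks for an R-squared of 0.7 or more beside a q-value under 0.05, called 9 members (11.7%), against 14.7% of all genes. JTK, a rank test against cosine orders, called 11 members (14.3%), against 14.1%, and MC, which combines JTK with the Lomb–Scargle periodogram, called 15 (19.5%), against 18.3%. All 3 called Mrpl34, Mrpl4, Mrps2, Mrpl15, Mrpl44 and Mrps14, the last of which encodes the counterpart of bacterial S14 and is named after its values were seen. At least 1 of them called 17 members, all of which were among the 30 with a 24 h cosine, while 13 of the 30 were called by none. No member had a 12 h term by limma, against 0.872% of all genes. At an unadjusted P below 0.05 there were 3 members (3.90%), against 12.6% of all genes, and the smallest adjusted P was 0.291. The livers of the highest time did not overlap with those of the lowest in 51 of the 77 members, against 70.8% of all genes.

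A neighbouring gene on the other strand is common next to members. A protein-coding gene with its annotated start within 500 bases on the other strand was found for 25 of the 77 members (32.5%), against 13.5% of all genes tested. Of these 25 members, 9 had a 24 h call, 8 of which had a neighbour that was tested, and 5 of these neighbours were called too. Of the 23 tested neighbours of all 25 members 7 were called, against 35.3% of all genes, and nothing is read from the 5. Beside Ndufs6 they were Gga3 next to Mrps7 (peak at ZT17.2), Eme2 next to Mrps34 (ZT17.5), Ptcd2 next to Mrps27 (ZT16.1) and Wdfy1 next to Mrpl44, the only one with a peak in the light (ZT4.3). The pairs with Mrps34 and Mrps27 are named here after their values were seen. Mrps7 has 127 exon bases in common with Gga3, and Mrpl44 has 126 with Wdfy1. Mrps34 shares 763 exon bases with Nme3 on its own strand and 1309 with Mapk8ip3 on the other. Reads of these called members may thus be shared with other genes.

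Proteins of the mitochondrial ribosome that go by other symbols were counted apart. Of 6 such genes in the table, 3 had a 24 h cosine, all with dark peaks. They were Ptcd3 (amplitude 0.15, peak ZT18.6, limma adjusted P = 0.0228), a small subunit protein with RNA-binding repeats, Ict1 (0.16, ZT16.1, 0.00483), which releases chains from stalled ribosomes, and Gadd45gip1 (0.16, ZT17.2, 0.0393). Chchd1 and Aurkaip1 were not called, with adjusted P values of 0.0650 and 0.104 and fitted peaks at ZT18.1 and ZT16.2, and neither was Dap3, a protein that binds GTP, with an amplitude of 0.05 and an adjusted P of 0.558. With plain totals none of the 6 was called, and Ptcd3, Ict1 and Gadd45gip1 had limma adjusted P values of 0.156, 0.0604 and 0.195 with the peaks still in the dark.

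Genes that act on or beside the mitochondrial ribosome had peaks in both phases. Of 25 genes for its assembly and for the processing of its RNA, 4 had a 24 h cosine, 3 with a dark peak. Of 14 mitochondrial translation factors 3 were called, 1 with a dark peak, and of 17 mitochondrial aminoacyl-tRNA synthetases 5 were called, 3 with a dark peak. Among 9 genes of mitochondrial transcription and replication 4 were called, 2 in the dark. The helicase Peo1, which unwinds mitochondrial DNA, had an amplitude of 0.31 and a peak at ZT17.5 (limma adjusted P = 0.000274). Tfam, which packs and activates that DNA, was not called (amplitude 0.08, adjusted P = 0.231). With plain totals the assembly genes had 4 calls, the translation factors 3, the synthetases 7 and the transcription genes 4, of which 0, 0, 3 and 1 peaked in the dark, and Tfam was called with a peak at ZT6.1 (adjusted P = 0.0379).

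The closest partners in function were the subunits of oxidative phosphorylation, which the mitochondrial ribosome completes. Of 78 nuclear subunits 39 were called, 36 with a dark peak. The median over these genes was 0.13 above the gene mean at ZT17 and 0.10 below it at ZT5, on the log2 scale. For the members these medians were 0.09 above and 0.08 below. Of the 13 subunits encoded in the mitochondrial genome 11 were called, all in the dark, but their median was still 0.09 below the mean at ZT13, when that of the members was already 0.06 above. The summed value of these 13 was 101239 ± 2866 at ZT17 and 76251 ± 4400 at ZT9 (SD, n = 3). The cytosolic ribosomal proteins had 24 of 85 called, all in the dark, with medians of 0.11 and 0.12 above the mean at ZT13 and ZT17. With plain totals the calls fell to 16 of 78 nuclear subunits, 13 of them in the dark, and to 5 of 85 cytosolic ribosomal proteins, 4 in the dark, while the mitochondrially encoded subunits kept a count of 11 of 13, all in the dark. The medians of the members were then 0.03 above the gene mean at ZT17 and 0.01 below it at ZT5, where those of all genes tested were 0.06 below and 0.07 above.

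**Figure D5:**
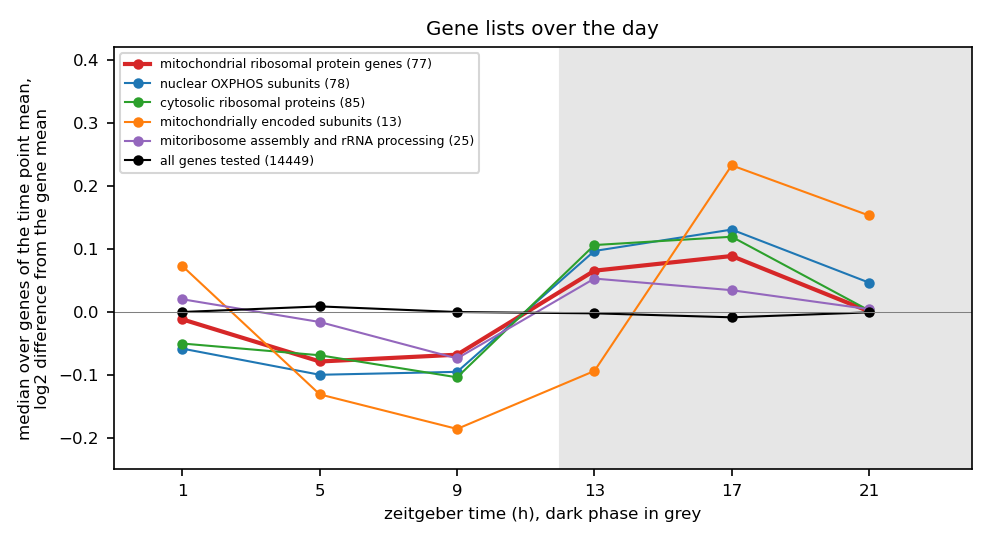
For each list, the median over its genes of the time point mean of log2(value + 1), as a difference from the mean of the gene, against zeitgeber time, with the dark phase in grey and the number of genes in brackets. Members, nuclear OXPHOS subunits and cytosolic ribosomal proteins cross from below to above 0 between ZT9 and ZT13, while the mitochondrially encoded subunits are still below 0 at ZT13, and all genes tested stay near 0.

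Most called regulators of mitochondrial biogenesis peaked in the light. Of 9 tested, 5 were called, of which Esrra alone peaked in the dark. Esrra encodes the nuclear receptor ERRα, and its value was 19.4, 20.8 and 20.6 at ZT1, 21.9, 22.5 and 22.2 at ZT5, 27.6, 28.02 and 38.6 at ZT9, 41.3, 29.1 and 31.96 at ZT13, 36.3, 35.8 and 34.3 at ZT17 and 27.4, 23.5 and 25.02 at ZT21. It was higher at ZT9 than at any earlier time, while the members were still low there, and peaked at ZT14.01 (amplitude 0.41 ± 0.053 SE, limma adjusted P = 6.73e-05). The coactivator genes Ppargc1a and Ppargc1b peaked at ZT6.8 and ZT8.0, with adjusted P values of 0.0317 and 0.00634. Gabpa, a subunit of GABP, and Yy1 peaked at ZT4.2 and ZT3.3, with adjusted P values of 0.0142 and 0.0171. Nrf1 was not called (amplitude 0.08, adjusted P = 0.462), nor were Gabpb1, Pprc1 and Myc. With plain totals the same 5 were called, with Esrra still the one in the dark, at ZT13.6.

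The promoter cores were found in called and other members. The ETS core was in 10 of the 26 called members with a promoter entry and in 15 of the 42 others, and the NRF1 core in 8 of 26 and 12 of 42. The YY1 core was in 7 of 26 and 6 of 42. The E-box was in 2 of 26 and 3 of 42, and the AGGTCA element in 6 of 26 and 5 of 42. CRE was in 0 of 26 and 2 of 42, and the D-box in none. The differences were not tested.

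Markers of cell types were summed beside the members. The 6 hepatocyte markers had a mean summed value of 88158 at ZT5 (range 78648 to 94361), 75327 at ZT9 (72753 to 77230) and 96411 at ZT17 (91468 to 103626). The 5 Kupffer cell markers, with a range over the livers of 99.6 to 254.8, had means of 218 at ZT5 and 165 at ZT17, and the 5 sinusoidal endothelial markers, with a range of 78.5 to 190.4, had means of 168 and 119. Stellate cell markers (5 genes) summed to 153 to 242, of erythroid cells (4) to 99.6 to 412 and of neutrophils (3 of 4 listed) to 0.893 to 2.72. The 4 cholangiocyte markers summed to 5.58 to 15.1 over the livers, with a mean of 6.36 at ZT5 (range 5.58 to 6.92), 6.66 at ZT9 and 11.9 at ZT17 (range 9.10 to 13.6), and their highest mean was 13.1 at ZT1. No marker in the table was at the floor in any liver. Kupffer and sinusoidal endothelial markers thus had lower means at ZT17, where the members were highest, than at ZT5. For both, the livers of ZT17 and ZT5 overlapped (Kupffer 99.7 to 228.7 against 194.1 to 254.8, endothelial 78.5 to 152.5 against 151.6 to 190.4). The cholangiocyte markers were higher at ZT17 than at ZT5 with no overlap of the livers, the direction of the members. The hepatocyte markers also had their highest mean at ZT17, with overlap between the livers of ZT17 and ZT5 and none between those of ZT17 and ZT9. The part of these markers in the result was not tested.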

How the data were processed

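Poly(A) RNA of 18 mouse livers, 3 at each of 6 zeitgeber times, was sequenced. Per the labels and the methods, the authors trimmed adapters with cutadapt, mapped reads to the GRCm38 transcriptome (Ensembl gene build), quantified them with RSEM 1.2.20 and normalized with limma. What was deposited is a linear signal: 0.5 is added to the RSEM estimate of each gene, and the sum is expressed per 1000000 of a library size that limma adjusted. Since these are not whole counts, log2(value + 1) was tested with limma 3.58.1 in R 4.3.3: a 24 h cosine and sine, any difference among the 6 times, and a 12 h pair beside that of 24 h, each by a moderated F test adjusted by Benjamini–Hochberg over 14449 genes (2 at the floor in all livers were left out). CircaN, JTK and MC were rewritten after the study's methods (Python 3.11.15, numpy 2.4.6, scipy 1.17.1), with periods of 20 to 28 h. The constants of the CircaN curves were read from a drawing of them, and the calls of all 3 rewritten algorithms are approximate. Depth was 10268168 to 23242842 estimated reads per liver. The limma, CircaN, JTK and MC scripts were tested on simulated data.

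The 77 members and the gene lists, motifs and tests were chosen with earlier results of these data known. The members named are the 15 called members of largest amplitude, the 3 highest and 3 lowest per kb, the 3 flattest, the S18 family, any with a 12 h term, and 3 called by 1 or 2 but not all algorithms (Mrps22, Mrps7 and Mrps11). Others are marked as named after their values were seen. Peak times are those of the cosine. Gene positions are from GENCODE M21 on GRCm38, and lengths are medians over the coding transcripts of a gene. Alternatives covered the pseudocount, the scaling, a filter at a mean value of 1, the prior of limma, the CircaN curves, the JTK null and leaving out each liver.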

Additional observations from a re-analysis of the deposited data

How the results depend on the processing

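With values rescaled to plain totals, members with a 24 h cosine fell to 19, and those with a dark peak among them to 16. Over all genes tested, calls of the 24 h cosine rose from 5103 to 5275. Members that differed among the times fell to 9, members called by CircaN to 5, by JTK to 4 and by MC to 6. The ratio of summed values fell to 1.07. By construction this setting undoes the effective library sizes. With equal cosine values taken as 1 group, JTK called 20. Leaving out 1 liver at a time gave 22 to 32 members with a 24 h cosine and 22 to 32 with a dark peak, 11 to 16 that differed among the times, 0 with a 12 h term, 7 to 15 by CircaN, 7 to 12 by JTK, 8 to 18 by MC, and ratios of 1.15 to 1.17. JTK called 7 without ZT5 replicate 1, ZT13 replicate 3 or ZT17 replicate 2, MC called 9, 8 and 9 without ZT17 replicates 1, 2 and 3, and CircaN called 15 without ZT21 replicate 2. The cause was not tested. The counts by dark peak and by a peak between ZT13 and ZT20 were chosen after the peak times had been seen. Of the 30 called members, 15 were called in every limma setting tried, namely the 15 of largest amplitude, and 18 with plain totals. Of 575 repeats for 25 named members, 568 kept direction and side of the threshold, 6 lost the call (3 each in Mrpl12 and Mrps26) and 1 gained it (Mrpl19 without ZT21 replicate 3, adjusted P = 0.0473). No paired analysis was possible because each liver came from another animal. Read depth was far above the floor for all members, and 3 livers per time limit the precision.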
